A study of Mus musculus with 12 samples.

Results

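The miRNA profile of unstimulated murine pulmonary endothelial cells was described from 4 control samples of a series of 12. The other samples, which had been treated with the NOD1 ligand TD or the NOD2 ligand MDP for 6 hours, entered no value. The 4 samples were chosen by their label alone, and each is 1 array, named here by its number in the label (4, 7, 10 and 13). The cells were primary endothelial cells from lungs of male C57BL/6N wild type mice aged 6 to 10 weeks, with no transgene and no ligand. According to the methods of the study, 3 mice were used for every isolation, and cells were selected with magnetic beads for CD144 and then for CD31, cultured on fibronectin to confluence and kept in 2% serum for 2 hours before use. A sample is therefore a pool of animals and a cultured population. The labels do not say which mice stand behind which array, and the spread between arrays may hold biological and technical parts that cannot be told apart.

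MicroRNAs are short RNAs that guide a silencing complex to messenger RNAs. The match is set mainly by the seed, bases 2 to 8 of the miRNA counted from its 5′ end, and miRNAs with the same seed form a family with largely shared targets. A hairpin precursor yields a 5p and a 3p arm, of which 1 usually accumulates. Many miRNAs are typical of a cell type: miR-126, from an intron of Egfl7, marks the endothelium, the miR-200 family marks epithelial cells, and miR-143 and miR-145 mark smooth muscle cells and fibroblasts.

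Each sample was run on a TaqMan low-density array, a card of 384 wells that holds 335 assays for mouse miRNAs, 40 for rat miRNAs and 9 control assays. A well reports Ct, the cycle at which its fluorescence crossed a threshold. A lower Ct stands for more RNA, 1 cycle being close to a factor of 2, and wells that never crossed it carry a Ct of 40 and are called undetermined. The level of a miRNA is its deposited normalized value with the sign turned, that is, the average U6 reading of a card (4 wells) minus the Ct of the miRNA, in cycles on a log2 scale. Ranks across miRNAs assume that all assays amplify equally well, which was not tested, and with 1 group no test was made.

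Of the 10 miRNAs with the lowest mean Ct, 5 belonged to 6 abundant seed families, whose mature sequences are printed because their seeds define the families used in the results. Sequences and positions are those of RefSeq for GRCm38.p6, where 65.4% of the 335 mouse assays had an entry. Capitals mark the seed. The miR-29 family and the miR-19 family held the largest shares of the summed amount among families with an entry for at least 2 assays.
miR-29a: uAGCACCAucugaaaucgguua
miR-29b: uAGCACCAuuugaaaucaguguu
miR-29c: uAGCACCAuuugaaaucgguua
miR-19a: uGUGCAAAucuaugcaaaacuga
miR-19b: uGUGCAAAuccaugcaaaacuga

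The mature miR-29a lies at chr6:31062673-31062694 on the minus strand, next to 1 copy of miR-29b at chr6:31063025-31063047. The mature miR-29c lies at chr1:195037600-195037621 on the plus strand, beside the other copy of miR-29b at chr1:195037091-195037113, both within the span of the lncRNA gene A330023F24Rik. The mature miR-19a at chr14:115044048-115044070 and 1 copy of miR-19b at chr14:115044358-115044380 belong to the miR-17-92 cluster. The second copy of miR-19b lies at chrX:52741991-52742013 in the miR-106a-363 cluster.

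The miR-17 family shares the seed AAAGUGC and is spread over 3 clusters. It is shown because all its members but miR-20b were highest on array 13 and lowest on array 7.
miR-17: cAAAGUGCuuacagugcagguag
miR-20a: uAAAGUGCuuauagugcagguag
miR-93: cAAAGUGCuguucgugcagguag
miR-106a: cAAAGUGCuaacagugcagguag
miR-106b: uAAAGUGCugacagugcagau
miR-20b: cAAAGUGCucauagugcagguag

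The mature miR-17 lies at chr14:115043684-115043706. The mature miR-93 at chr5:138165574-138165596 and miR-106b at chr5:138165787-138165807 lie within the span of the protein-coding gene Mcm7, and miR-106a lies at chrX:52742541-52742563.

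The let-7 family, the miR-15/16 family and the pair of miR-221 and miR-222 follow in share. For let-7 the 3 members with the lowest Ct are printed.
let-7e: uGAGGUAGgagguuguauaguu
let-7g: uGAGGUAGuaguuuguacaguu
let-7i: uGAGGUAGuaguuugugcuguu
miR-16: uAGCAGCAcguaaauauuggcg
miR-15b: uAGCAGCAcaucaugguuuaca
miR-322: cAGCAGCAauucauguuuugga
miR-221: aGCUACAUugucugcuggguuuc
miR-222: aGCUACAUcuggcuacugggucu

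The mature let-7g lies at chr9:106178846-106178867 within the span of Wdr82, and let-7e at chr17:17830366-17830387 within the span of Spaca6. The mature miR-15b at chr3:69009775-69009796 and 1 copy of miR-16 at chr3:69009918-69009939 lie within the span of Smc4. The mature miR-221 at chrX:19146307-19146329 and miR-222 at chrX:19146901-19146923 lie side by side.

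Further assays with an entry, 4 of them printed, stood among the 10 or 20 miRNAs of lowest Ct without an abundant relative of the same seed.
miR-24: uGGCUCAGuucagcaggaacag
miR-31: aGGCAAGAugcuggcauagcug
miR-191: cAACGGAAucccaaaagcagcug
miR-146a: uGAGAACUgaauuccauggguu

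Of the 335 mouse miRNAs, 54.0% were measured on all 4 arrays, and 67 were undetermined on all of them. Another 36 were measured on 3 arrays, 23 on 2 and 28 on 1. The share measured was 69.3% on array 4, 66.6% on array 7, 64.5% on array 10 and 70.1% on array 13. The median Ct of the measured wells was 28.9 for miRNAs measured on all arrays and 33.0, 33.7 and 34.2 for those measured on 3, 2 and 1. An undetermined well was thus mostly found among assays that were late where they were measured, with the exceptions given further on. Of the 906 measured mouse wells, 57 had a Ct of 35 or later.

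The control wells describe how even the arrays were. The mean Ct of U6, the spliceosomal RNA used as the reference, was 19.8, 20.04, 19.3 and 19.4 on arrays 4, 7, 10 and 13, and the SD of the 4 U6 wells of a card was 1.22, 0.71, 1.12 and 0.89 cycles. The wells of 1 card thus differed by more than the card means did, which had an SD of 0.36. The small nucleolar RNA snoRNA202 had a Ct of 20.7, 20.6, 21.4 and 21.3, and snoRNA135 of 26.5, 25.5, 24.7 and 24.3. These references did not order the arrays alike. U87, another small nucleolar RNA, had a Ct of 27.3, 27.3, 28.2 and 27.7, and the cytoplasmic RNA Y1 of 28.4, 28.5, 28.2 and 27.4. The plant miRNA ath-miR159a, which mouse cells lack, was undetermined on all 4 arrays.

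miR-126 stood at the head of the profile. The Ct of miR-126-3p was 19.8, 19.4, 19.3 and 20.3 on arrays 4, 7, 10 and 13, the lowest among the miRNAs measured on all arrays. Its amount was 101.2%, 159%, 99.8% and 54.2% of that of U6 on these arrays, a level of -0.05 ± 0.64 (SD, n = 4). The 5p arm followed with a Ct of 21.3, 20.1, 21.1 and 22.4. Both arms of this hairpin were abundant, the 3p arm crossing the threshold 1.54 ± 0.55 cycles earlier (SD, n = 4) and on 4 of 4 arrays. The label of the cells and their defining miRNA therefore did not conflict, and both arms were at their highest level on array 7 and at their lowest on array 13.

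Behind miR-126 came miRNAs found in many cell types. miR-24, of the miR-23-27-24 clusters, had a Ct of 21.3, 20.8, 21.99 and 21.8. miR-19b of the miR-17-92 cluster had a Ct of 21.8, 23.3, 21.7 and 22.1, and miR-29a, a regulator of collagen genes, of 21.998, 22.1, 22.5 and 22.6. miR-31, which targets leukocyte adhesion molecules in endothelium, had a Ct of 21.95, 22.3, 22.6 and 24.4. Array 13 was thus late for miR-31, by 2.33 cycles in level against the mean of the others. The remaining miRNAs of the first 10 were miR-16, miR-29c, miR-191 and miR-222, with mean Ct between 22.9 and 23.5.

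**Figure D1:**
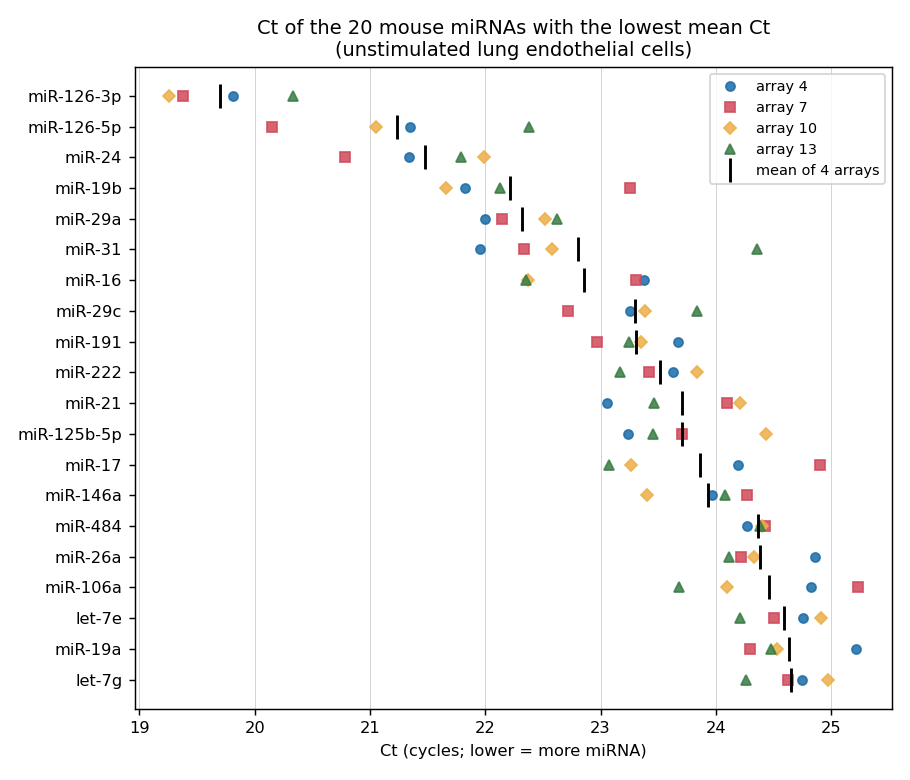
Ct of the 20 mouse miRNAs with the lowest mean Ct on each of the 4 control arrays (symbols) with the mean (black bar), a lower Ct standing for more miRNA. miR-126-3p is separated from the miRNAs below it on every array, while from miR-24 on the symbols of neighbouring miRNAs overlap.

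The second 10 were miR-21, miR-125b-5p, miR-17, miR-146a, miR-484, miR-26a, miR-106a, let-7e, miR-19a and let-7g. miR-21, widely expressed and induced by growth signals, had a Ct of 23.1, 24.1, 24.2 and 23.5. miR-146a, which targets the NF-κB adaptors Irak1 and Traf6, had a Ct of 23.97, 24.3, 23.4 and 24.1. Its level had an SD of 0.23, the smallest among the 24 miRNAs with a mean Ct before 25. miR-484 had the smallest Ct range among miRNAs without an undetermined well, 0.155 cycles, with 24.3, 24.4, 24.4 and 24.4.

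The order beyond miR-126 was loose. Of the 19 pairs of neighbours among the first 20, the mean within-array difference exceeded its own SD in 2, and the same 2 pairs kept their order on 4 of 4 arrays. These were miR-126-3p before miR-126-5p and miR-146a before miR-484, the latter by 0.44 ± 0.38 cycles (SD, n = 4). miR-126-5p preceded miR-24 by 0.24 ± 0.68 cycles and on 2 of 4 arrays. Of the first 10 miRNAs 5 were among the first 10 on every array, and of the first 20 miRNAs 13 were among the first 20 on every array, both counted among the miRNAs measured on all arrays.

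**Figure D2:**
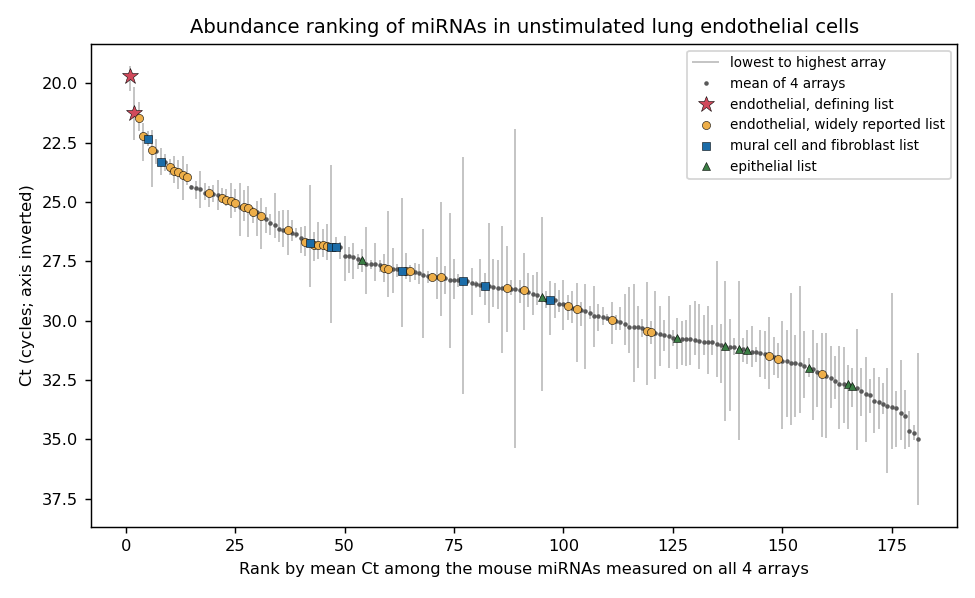
Mean Ct (points) and range over the 4 arrays (grey lines) of the mouse miRNAs measured on all arrays against their rank, on an inverted axis, with members of 4 lists coloured. The miR-126 arms hold the first ranks, the widely reported endothelial miRNAs lie mostly to the left, and the epithelial miRNAs to the right of most of them.

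The summed amount was concentrated in few miRNAs. Counting 2 to the power of minus Ct over the miRNAs measured on all arrays, the 10 most abundant held 68.1%, 78.1%, 67.1% and 52.0% on arrays 4, 7, 10 and 13, a mean of 66.3% ± 10.7 (SD, n = 4). The 20 most abundant held 78.6% ± 7.84. Both arms of miR-126 together held 33.9%, 47.3%, 41.1% and 23.4%. The share of both arms together was thus highest on array 7 and lowest on array 13, as their level relative to U6 was. miR-126-3p alone held 25.2%, 29.9%, 31.9% and 18.8%. Its share was highest on array 10, where its Ct without a reference was also lowest.

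This restriction to miRNAs measured on all arrays was chosen after seeing the data. With every measured mouse well in the sum, the share of the first 10 was 62.9%, 74.0% and 64.1% on arrays 4, 7 and 10 but 0.0285% on array 13, and its mean was 50.3% ± 33.9 (SD, n = 4). A single well decided this. miR-881, of an X-linked cluster expressed in the male germ line, was undetermined on arrays 4, 7 and 10 and had a Ct of 7.09 on array 13, which alone made 99.9% of that sum. It lies 12.2 cycles before the earliest well of miR-126-3p.

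Among the seed families the miR-29 family held the largest share of the sum over miRNAs measured on all arrays, 7.92%, 7.40%, 5.18% and 5.50%, a mean of 6.502% ± 1.36 (SD, n = 4). Its members were uneven: miR-29a and miR-29c had mean Ct of 22.3 and 23.3, and miR-29b of 29.1. The miR-19 family held 5.80% ± 1.86, most of it miR-19b. Both families thus rested on 1 or 2 members.

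The miR-17 family held 3.24%, 1.71%, 4.65% and 7.40%, a mean of 4.25% ± 2.42. miR-17 itself, a miRNA linked to proliferation, had a Ct of 24.2, 24.9, 23.3 and 23.1. The share was lowest on array 7 and highest on array 13, as were those of let-7 and the miR-15/16 family. This was the reverse of the share of both miR-126 arms together. All of them are parts of the same sum, so these shares do not vary independently. Of the 6 members, miR-17, miR-20a, miR-93, miR-106a and miR-106b each had their highest level on array 13 and their lowest on array 7, an order seen in 14.9% of all miRNAs measured on all arrays, and miR-20b, the member with the highest mean Ct (28.7), did not.

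The let-7 family, known for restraining proliferation and abundant in differentiated cells, held 3.71%, 3.36%, 3.37% and 6.44%, a mean of 4.22% ± 1.49 (SD, n = 4). All 9 members with an entry were measured on all arrays, with mean Ct from 24.6 for let-7e to 30.8 for miR-98. let-7e, let-7g and let-7i were the first 3, and let-7a had a mean Ct of 28.6. The 4 members of the miR-15/16 family with an entry held 3.46% ± 1.54. Among them miR-16, at a mean Ct of 22.9, was ahead of miR-15b at 27.3, miR-15a at 28.6 and miR-322 at 28.6. Assays without an entry, which may share a seed, were counted in no family. The pair of miR-221 and miR-222, which target Kit in endothelial cells, held 2.66% ± 0.64. Neighbouring families in this order overlapped in their shares over the arrays, while the miR-29 family held more than miR-221 and miR-222 on every array.

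With all measured wells in the sum, including the miR-881 well of array 13, the means were 4.82% ± 3.38 for the miR-29 family, 3.93% ± 3.12 for the miR-19 family, 2.26% ± 1.90 for the miR-17 family, 2.46% ± 1.64 for let-7, 2.04% ± 1.67 for the miR-15/16 family and 1.69% ± 1.16 for miR-221 and miR-222.

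Cell identity was described with 13 hand-written lists of miRNAs. For each list the median level over its measured members was set beside that of all 268 mouse miRNAs measured at least once, which was -10.85. Apart from miR-126, 40 assays belonged to miRNAs widely reported in endothelium. Beside 54.0% of all 335 mouse miRNAs, 39 of these 40 were measured on all arrays. Their median level was -7.17, or 3.68 cycles above that of all miRNAs, and 36 of 40 had a lower mean Ct than the median miRNA. The list holds the proliferation cluster miR-17-92, the shear-responsive miR-10a and miR-10b, the angiogenic miR-132, miR-210 of hypoxia, and miR-155 and miR-146a of inflammation, 4 of its assays standing in another list as well.

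Within the list, miR-10b had a Ct of 25.4, 25.2, 24.8 and 26.96, and its relative miR-10a of 27.3, 26.9, 26.5 and 26.0. The 2 relatives thus moved in opposite ways on array 13. miR-155 had a Ct of 25.9, 25.3, 25.4 and 25.2, a tight range. miR-132 had a Ct of 28.8, 29.02, 28.0 and 25.4. Its level on array 13 was 3.001 cycles above the mean of the others. miR-23a, transcribed with miR-24 and miR-27a, had a Ct of 28.2, 29.6, 25.01 and 29.8, while miR-27a stayed between 27.7 and 28.4.

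**Figure D3:**
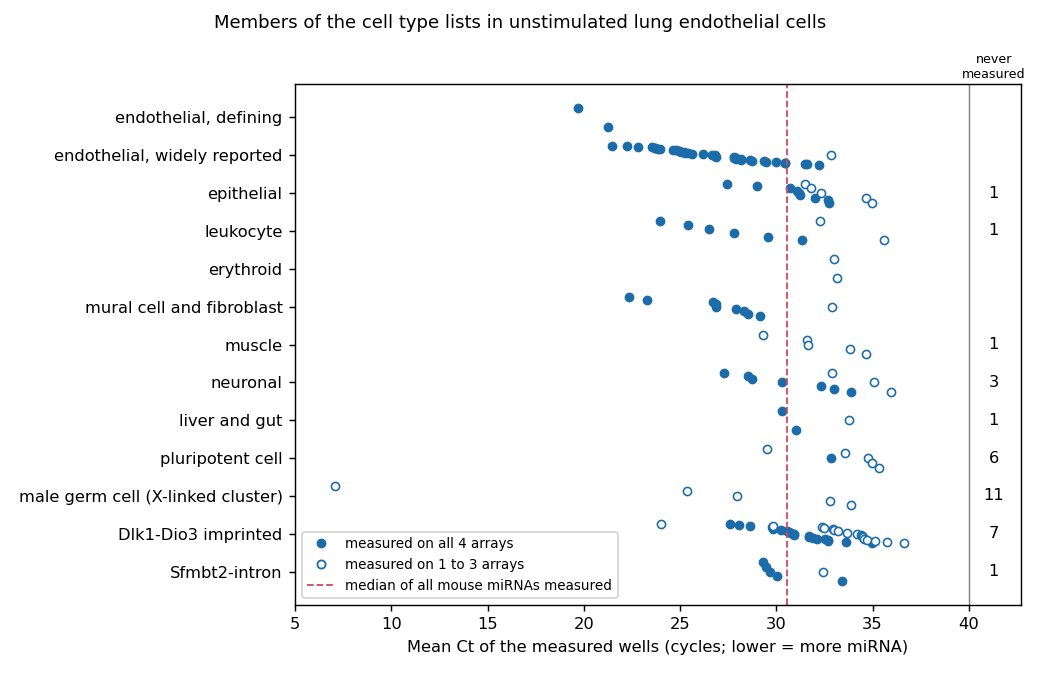
Mean Ct of the measured wells of every member of 13 lists (points, filled where measured on all 4 arrays), with the median of all mouse miRNAs measured (dashed) and, at the right, how many members were never measured. Both endothelial lists lie left of the dashed line in all but 4 cases, and pluripotent and male germ cell miRNAs are mostly undetermined.

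Mural cells and fibroblasts share the lung with the endothelium. All 10 assays of their list were measured, 9 of them on all arrays, beside 54.0% of all 335 mouse miRNAs. The median level was -7.75, or 3.10 cycles above that of all miRNAs. This median includes the abundant miR-29 family, and the defining members of the list differed widely between arrays. miR-145 had a Ct of 29.9, 33.1, 27.3 and 23.1 on arrays 4, 7, 10 and 13, and miR-143, from the same transcript, of 29.1, 30.2, 27.4 and 24.8. miR-214, of the Dnm3os transcript of mesenchymal cells, had a Ct of 27.8, 30.1, 26.1 and 23.5. All 3 had their lowest level on array 7 and their highest on array 13, and the range of miR-145, 9.96 cycles, was the second largest among the miRNAs measured on all arrays.

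The arms of miR-199a, which shares the transcript of miR-214, followed. miR-199a-3p had a Ct of 26.9, 28.6, 27.1 and 24.3, and miR-199a-5p of 32.8, undetermined, 35.5 and 30.3. Summed, miR-143, miR-145, miR-214 and both arms of miR-199a came to 1.39%, 0.456%, 2.04% and 20.04% of the amount of U6, a ratio of 43.9 between array 13 and array 7. Of the 9 list members measured on all arrays, 4 were highest on array 13 and lowest on array 7, against 27 (14.9%) of all miRNAs measured on all arrays. The other members did not share this order. miR-29b and miR-29c were at their lowest level on array 13 and miR-29a on array 10. Over the whole list, in which miR-29a and miR-29c weigh most on arrays 4, 7 and 10, the summed amount was 0.342, 0.412, 0.189 and 0.365 of that of U6, highest on array 7. In RNA of a whole culture, more cells of a type and more of its RNA per cell cannot be told apart.

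Epithelial miRNAs were mostly late where measured. Of the 15 assays of the list, 9 were measured on all arrays, beside 54.0% of all 335 mouse miRNAs. The 1 measured on none was miR-205, of squamous and basal cells. The median level was -12.02, or 1.17 cycles below that of all miRNAs, and 2 of 15 had a lower mean Ct than the median miRNA. With undetermined wells kept at 40, which lowers the median of all miRNAs, the distance was -0.011. In the miR-200 family, which represses Zeb1 and Zeb2, miR-200b had a Ct of 25.6, 33.0, 28.9 and 28.6. miR-200c had a Ct of 30.9, 34.2, 30.9 and 28.3, and miR-429 of 30.9, 35.01, 30.5 and 28.3. These 3 members had their lowest level on array 7.

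The 2 late members of the family differed. miR-141 was measured on 3 arrays and undetermined on array 7, and miR-200a was measured with a Ct of 34.6 on array 7 and undetermined on array 4. The summed amount of miR-200a, miR-200b, miR-200c, miR-141 and miR-429 was 1.89%, 0.0255%, 0.237% and 0.78% of U6. It was thus high on arrays 4 and 13, and on array 4 it rested on miR-200b. miR-203, an epidermal miRNA, had a Ct of 32.2, 34.6, 32.0 and 31.9 and was likewise latest on array 7. Of the 9 members measured on all arrays 5 had their lowest level on array 7, but 3 had their highest there. These 3 were miR-183 and the ciliated cell miRNAs miR-34b-3p and miR-449a. The relatives of miR-34b-3p and miR-449a did not share this. miR-34c was lowest on array 7, and so was miR-449b among the arrays where it was measured. miR-34b-3p, the earliest member, had a Ct of 27.96, 26.96, 27.7 and 27.1. The summed amount of the whole list was 0.0241, 0.00988, 0.00687 and 0.0141 of that of U6, lowest on array 10.

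The opposite order, highest on array 7 and lowest on array 13, was seen for 15 (8.29%) of the miRNAs measured on all arrays, among them miR-126-3p, miR-126-5p, miR-10b, miR-139-5p, miR-29b and miR-29c. miR-139-5p, of the Pde2a gene, had a Ct of 25.2, 24.97, 25.1 and 26.4. Array 13, on which these miRNAs were lowest, had the highest sum of miR-143, miR-145, miR-214 and miR-199a and the second highest sum of the miR-200 family, though not the highest sum of the whole mural list. Whether the make-up of the culture played a part was not tested.

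**Figure D4:**
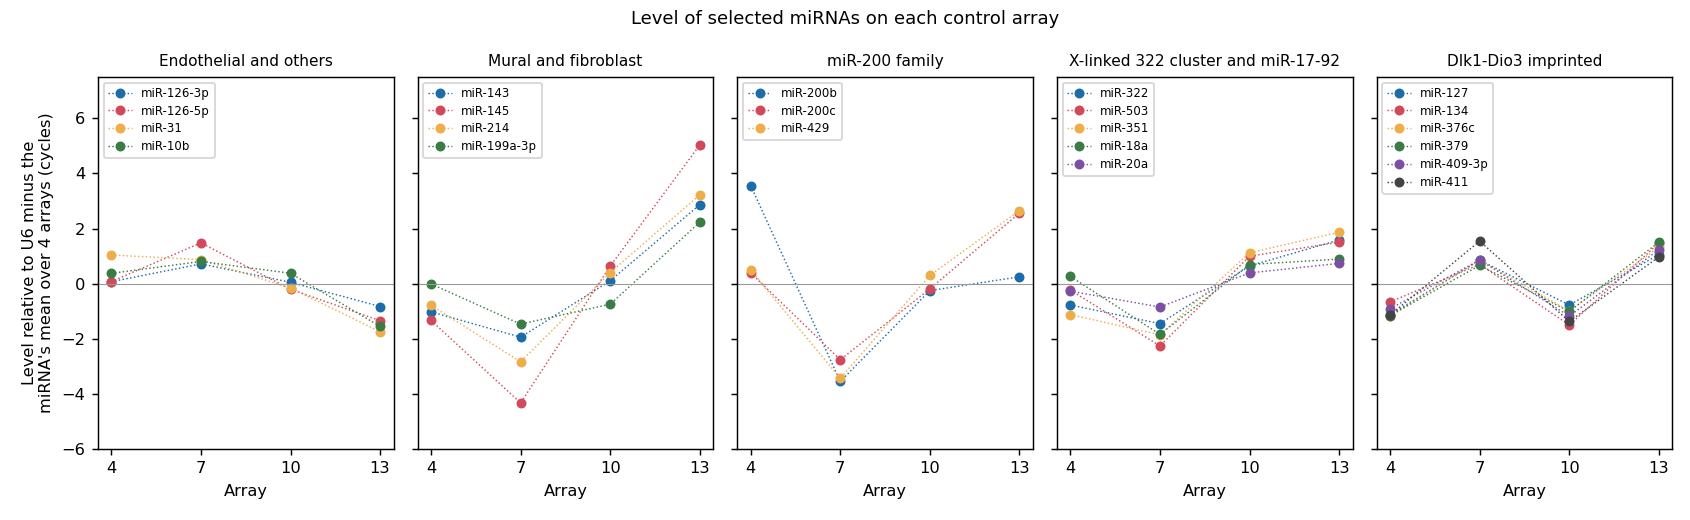
Level relative to U6 of selected miRNAs on each control array, as the difference in cycles from the miRNA's own mean over the 4 arrays (points; dotted lines join the points of 1 miRNA, and the arrays have no order). miR-143, miR-145, miR-214 and miR-199a-3p are highest on array 13 and lowest on array 7, and the miR-126 arms the reverse.

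Some members of other clusters followed the order of miR-143 and miR-145 over the arrays. miR-322, miR-503 and miR-351 lie in 1 X-linked cluster that is known for cell cycle exit. Their levels deviated by -0.71, -1.86, 0.92 and 1.65 cycles on arrays 4, 7, 10 and 13 from their means over the arrays. Each was highest on array 13 and lowest on array 7, an order seen in 14.9% of all miRNAs measured on all arrays. In the same cluster, miR-542-3p was highest on array 13 but lowest on array 10. miR-450a-5p was undetermined on array 4 and lowest on array 10 among the others. miR-322 itself had a Ct of 29.6, 30.5, 27.6 and 26.9. miR-17, miR-18a, miR-20a and miR-92a of the miR-17-92 cluster deviated by -0.11, -1.004, 0.40 and 0.71 cycles. Their order of arrays was that of miR-322, miR-503 and miR-351. The other members of the miR-17-92 cluster did not follow it: miR-19a had its highest level on array 7 and miR-19b on array 4.

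The imprinted Dlk1-Dio3 domain holds a large miRNA cluster that is expressed mainly from the maternal chromosome. Its miRNAs were mostly late where measured. Of its 45 assays, 21 were measured on all arrays, 17 on some and 7 on none, beside 54.0% and 67 of all 335 mouse miRNAs measured on all and on none. The median level was -12.88, or 2.03 cycles below that of all miRNAs, and 10 of 45 had a lower mean Ct than the median miRNA. miR-379 had a Ct of 32.0, 30.4, 31.3 and 28.9, miR-411 of 31.9, 29.4, 31.6 and 29.4, and miR-127 of 31.1, 29.3, 30.2 and 28.5. All 3 had more on arrays 7 and 13 than on arrays 4 and 10. This held for 11 (52.4%) of the 21 members measured on all arrays and for 54 (29.8%) of all miRNAs measured on all arrays.

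Other members of the domain did not follow. miR-337-5p went the other way, with a Ct of 22.4, 34.96, 21.9 and 35.4 on arrays 4, 7, 10 and 13. The summed amount of the whole list, which also holds miR-496, was 0.287, 0.0189, 0.168 and 0.0514 of that of U6. It was thus higher on arrays 4 and 10 than on arrays 7 and 13. miR-431 had a Ct of 26.4, 30.7, 28.9 and 26.1, miR-136 of 34.9, 31.4, 35.9 and 37.8, and miR-494, with a range of 0.385 cycles, stayed near 27.6.

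Markers of blood cells were mixed. Of 9 leukocyte assays, 6 were measured on all arrays, beside 54.0% of all 335 mouse miRNAs. Of the 9, 3 are shared with the endothelial list. The median level was -9.03, or 1.82 cycles above that of all miRNAs. The defining miR-142-5p was undetermined on all 4 arrays, and miR-142-3p had a Ct of 35.2, undetermined, 34.97 and 36.6. miR-223 of myeloid cells had a mean Ct of 31.3 and miR-150 of lymphocytes of 29.6. The earliest members were miR-146a, miR-155, miR-342-3p and miR-181a, with mean Ct from 23.9 to 27.8, and the list median lay between miR-181a and miR-150. The erythroid miR-451 was measured on array 13 alone, with a Ct of 33.0, and miR-486 on arrays 10 and 13, with 30.998 and 35.3.

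Other lineages ranged from undetermined to measured throughout. Of the 6 muscle assays none was measured on all arrays, 5 on some and 1 on none. Of all 335 mouse miRNAs, 54.0% were measured on all arrays. On array 13, 4 of the 6 muscle assays were measured. miR-1 had a Ct of 28.9, 32.1, undetermined and 33.9 on arrays 4, 7, 10 and 13. The rat assay for miR-1 was measured on all 4, at 31.4 to 33.8. miR-499 was undetermined on every array, and miR-133b was measured on array 13 alone, with a Ct of 29.3. Of the 13 neuronal assays 7 were measured on all arrays and 3 on none, beside 54.0% and 67 of all 335 mouse miRNAs, with a median 1.91 cycles below that of all miRNAs. miR-138 and miR-124, with mean Ct of 27.3 and 28.5, were earlier than the median miRNA at 30.6. Of the 4 liver and gut assays, miR-122 of hepatocytes was undetermined on all arrays, miR-192 and miR-194 were measured on all, with mean Ct of 30.3 and 31.04, and miR-215 on 3. Their median level was 0.55 cycles below that of all miRNAs.

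miRNAs of pluripotent cells and of the male germ line made up 17 of the 67 miRNAs undetermined on all arrays. Of all 335 mouse miRNAs, 20% were undetermined on all arrays. Of 12 pluripotent cell assays, which belong to the miR-290 and miR-302 clusters, 6 were undetermined on all arrays and 1, miR-367, was measured on all, with a Ct of 31.8, 35.4, 33.7 and 30.4. Of 16 assays of the X-linked male germ cell cluster, 11 were undetermined on all arrays and none was measured on all. The 67 also held 7 of the 45 assays of the Dlk1-Dio3 domain, 3 of the 13 neuronal assays and 35 outside every list.

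By contrast, most of the Sfmbt2-intron miRNAs, a rodent-specific cluster, were measured. Of 7 assays 5 were measured on all arrays, 1 on some and 1 on none. Of all 335 mouse miRNAs, 54.0% were measured on all arrays. The median level of the list was 0.63 cycles above that of all miRNAs. miR-467a had a Ct of 29.6, 29.5, 28.7 and 29.4, and miR-669a of 29.8, 30.4, 30.2 and 29.8. Both were among the more even miRNAs of their abundance. Other members were less even: miR-467d had an SD of 1.32 cycles in level, and miR-467e was undetermined on array 13.

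Where the card carries both arms of a hairpin, 1 arm usually prevailed. miR-125a-5p preceded its 3p arm by 6.65 ± 0.74 cycles (SD, n = 4) and miR-125b-5p by 7.77 ± 0.96, each on 4 of 4 arrays. Here the 5p arm dominated, as it is known to. The 3p arm was the earlier one for miR-199a, by 6.78 ± 1.42 cycles on the 3 arrays where both were measured, and for miR-342, by 8.56 ± 1.59 cycles on 3. miR-126 was the exception among the abundant hairpins, with both arms within 2.05 cycles on each array. For miR-337 each arm was earlier on 2 of 4 arrays. miR-434 had no steady preference, the 3p arm being earlier on 3 of 4 arrays but later by 0.24 ± 1.66 cycles on average (SD, n = 4), because it was later by more on array 10.

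miRNAs that have been linked to NOD receptors or inflammation spanned the range of abundance. miR-125a-5p had a Ct of 25.7, 24.8, 25.1 and 24.2, and miR-320 of 28.2, 29.8, 27.8 and 27.8. miR-495 had a Ct of 30.8, 31.2, 31.4 and 30.2. These were measured on every array. miR-147, an inducible miRNA of macrophages, was late, with a Ct of 32.2, 33.5, undetermined and 31.1. miR-298 had a Ct of 30.5, 29.9, 33.8 and 30.3, latest on array 10.

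The spread between arrays grew with Ct. The median SD of the level over the 4 arrays was 0.72 cycles for the miRNAs measured on all arrays, 0.51 for the 24 with a mean Ct before 25, 0.69 for the 87 between 25 and 30 and 1.11 for the 70 between 30 and 35. These values compare with the SD of 0.71 to 1.22 cycles among the U6 wells of a card. The SD was above 1 cycle for 65 of these miRNAs, 42 of them with a mean Ct of 30 or later. The median range in Ct was 1.59 cycles, 47 miRNAs stayed within 1 cycle and 14 ranged over more than 5.

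**Figure D5:**
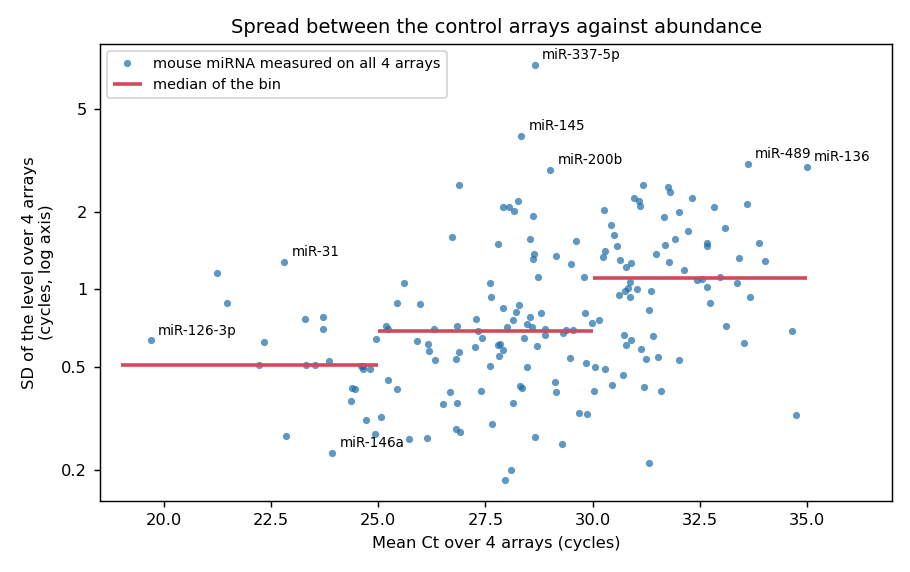
SD of the level over the 4 arrays (log axis, cycles) against mean Ct for the mouse miRNAs measured on all arrays, with the median of each bin of mean Ct (red). The medians rise from 0.51 to 1.11 cycles, and miR-337-5p stands apart at 7.41.

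Arrays were alike across miRNAs but not to the same degree. Pearson's r of Ct, without a reference, between 2 arrays is a description across miRNAs measured on both, which are not independent replicates. It ran from 0.784 for arrays 7 and 13 (204 miRNAs) to 0.908 for arrays 4 and 10 (202 miRNAs). The median absolute difference was 0.963 cycles in the former pair and 0.624 in the latter. The median absolute difference was largest, 1.02 cycles, for arrays 4 and 13, so that the least alike pair depends on the measure. In level relative to U6, arrays 7 and 13 also opposed each other for miR-126 and for miR-143, miR-145 and miR-214.

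The miRNAs with the smallest ranges after miR-484 were miR-30d, miR-188-5p, miR-335-5p, miR-27b, miR-494, miR-34a and miR-744, with ranges of 0.259 to 0.494 cycles and mean Ct of 26.3 to 29.9. The largest range, 13.5 cycles, was that of miR-337-5p, with a Ct of 22.4, 34.96, 21.9 and 35.4. Then came miR-145, miR-200b, miR-429, miR-214, miR-489, miR-136 and miR-200c, with ranges of 5.93 to 9.96 cycles. Of these 8 miRNAs, 5 belong to the mural or epithelial lists, which hold 9.94% of the miRNAs measured on all arrays.

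Some miRNAs were early on some arrays and undetermined on others, against the rule that missing wells are late. miR-211, of the melanocyte gene Trpm1, had a Ct of 21.99, undetermined, 22.1 and 22.4. miR-496 had a Ct of 23.2 on array 4 and 24.8 on array 13 and was undetermined on the others, and miR-708 had a Ct of 35.045, 21.965, undetermined and 32.9. Among the mouse miRNAs of an array, miR-211 held rank 6 on array 4, 6 on array 10 and 8 on array 13. miR-496 held rank 10 on array 4 and miR-708 rank 4 on array 7. Each was below detection on at least 1 other array, so the ranking by mean Ct over all arrays left them out. miR-465a-5p was measured on arrays 7 and 13, at 25.7 and 25.01, miR-743a on arrays 4 and 13, at 27.6 and 28.4, and miR-448 on all but array 7, at 27.6 to 29.8.

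A further 5 miRNAs were measured before cycle 30 on a single array. These were miR-881 and miR-188-3p on array 13, with a Ct of 7.09 and 18.2, miR-133b and miR-382 on array 13, with 29.3 and 29.8, and miR-293 on array 7, with 29.5. Of the 5, 4 fell on array 13. miR-881 and miR-188-3p were the 2 mouse wells earlier than the earliest well of miR-126-3p, and in a ranking of all miRNAs measured at least once miR-126-3p held rank 3 behind them.

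Assays designed for rat sequences read mouse RNA in part. Of the 40, 11 were measured on all arrays and 17 on none. The rat assay for miR-351 had a Ct of 31.4, 32.4, 29.5 and 29.8, beside 31.8, 32.7, 28.9 and 28.4 for the mouse assay, with array 7 latest in both. The rat assay for miR-190b had a Ct of 19.5 on array 4 and 33.0 to 37.8 on the others.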

How the data were processed

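Per the labels and methods, total RNA was reverse-transcribed by the authors with Megaplex primers and run on TaqMan low-density arrays for 40 cycles. The deposited Ct values (a score in cycles, not normalized) hold 40 for undetermined wells, and the deposited normalized log2 values are Ct minus the mean of the 4 U6 wells, as checked on every well. The authors' fold changes were not used, nor were 12 unnamed columns of the Ct table. Any effect of the array's threshold on single wells was not tested.

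Values of the 4 control arrays were summarised with python 3.11.15, numpy and pandas, with wells at 40 missing. Shares are of 2 to the power of minus Ct per array, and no test was made, since 4 arrays cannot give a two-sided exact sign-flip p under 0.125. The functions were tested on simulated data. The arrays' number limits the precision. Sequences were matched for 90 assays by name and for 129 by name with the usual arm added by hand. Named were the 20 miRNAs of lowest mean Ct, members of the 6 largest seed families and of the lists, the 8 largest and 8 smallest ranges, early miRNAs undetermined on 1 or 2 arrays, both arms of hairpins, controls and miRNAs the study discusses. The members and lists were chosen with earlier results of these data known. Alternatives covered the Ct limit (35), undetermined wells, the reference, the summary, rat assays and each array left out.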

Additional observations from a re-analysis of the deposited data

Results flagged for a closer look

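Among the levels of the named miRNAs measured on all arrays and 3 values of the arrays themselves, 7 (5.65% of those tested) held an array far from the others, and chance flags about 1 in 20. The measure is the gap of the outermost array divided by the whole range. It was 0.937 for miR-132 and 0.92 for miR-489, both highest on array 13, by 3.001 and 6.11 cycles in level against the mean of the others. It was 0.872 for miR-467b, lowest on array 13 by a level difference of -1.08. For miR-203 it was 0.84 and for miR-320 0.8295, both lowest on array 7, with differences of -2.01 and -1.29. For miR-129-3p it was 0.99 and for miR-98 0.878, both lowest on array 10, with differences of -2.82 and -1.96. The cause was not tested.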

How the results depend on the processing

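Of 213 recomputed values of 26 summary results, 28 moved by more than the spread between arrays or, for counts, more than 1.5 times, and 1, the distance of the male germ cell list from all miRNAs, changed sign, apart from levels relative to another reference. The miR-881 well of array 13 decided the shares. With 2 to the power of minus Ct averaged over the arrays first, the 10 most abundant miRNAs held 0.167%, the miR-29 family 0.0161%, the miR-19 family 0.0142%, the miR-17 family 0.0102%, let-7 0.0102%, the miR-15/16 family 0.00845% and miR-221 and miR-222 0.00645%. Without array 13 the 10 most abundant held 67.0%, and without array 10 the miR-15/16 family held 1.35%. With the sum restricted to miRNAs measured on all arrays, chosen after seeing the data, the miR-17 family held 4.25% and let-7 4.22%. miR-126-3p had rank 3 among all miRNAs measured at least once, a ranking also chosen after seeing the data, and rank 1 under each of the other alternatives.

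Keeping undetermined wells at 40 lowers the median of all miRNAs. The distance of a list from that median then became 12.2 cycles for miR-126, 5.85 for the widely reported endothelial list, 5.27 for the mural and fibroblast list, 3.11 for the leukocyte list, 2.63 for the Sfmbt2-intron list, -0.011 for the epithelial list, -5.51 for the muscle list, -6.76 for the pluripotent cell list and -7.34 for the male germ cell list, which had stood at 2.52 on the few members measured. With wells above Ct 35 left out, the widely reported endothelial list stood at 3.45, and with each array left out in turn at 3.48 to 3.68.

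The median level of 72 named miRNAs was -7.43 relative to U6, -7.83 with undetermined wells at 40, -6.75 with U6 and snoRNA202 averaged as the reference, 1.72 relative to the mean of the miRNAs and -27.07 with no reference, which changes the scale, and -7.76 to -7.17 with each array left out. The lowest r between arrays was 0.784 to 0.846 with each array left out, the higher value without array 7. No paired analysis was possible because a single group was described. The limits are the number of arrays and, beyond about Ct 30, the loss of wells.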
